A study of Mus musculus with 6 samples.

Results

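The transcripts of 41 genes that carry a cell through mitosis and cytokinesis were followed in the livers of mice without hepatic Vps15, the regulatory subunit of class 3 PI3K that is encoded by Pik3r4. The genes were given as a list of symbols, and all 41 were found among the 56305 genes of the deposited RNA-Seq table. They were grouped by role into the cyclin-dependent kinase engine of mitosis (7 genes), mitotic kinases (3), the spindle checkpoint (4), activation of the anaphase-promoting complex (2), the centromere and kinetochore (7), the chromosomal passengers (3), chromosome structure (2), spindle motors and assembly factors (7), and the central spindle with cytokinesis (6). Of these genes, 40 were higher in Vps15LKO than in WT livers, most by about an order of magnitude, and Spc24 was not.

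The livers came from male mice aged 5 weeks, fed ad libitum and collected at ZT6, with 3 animals labelled WT and 3 labelled Vps15LKO and 1 library per liver. Vps15LKO animals are AlbCre+;Vps15 f/f, so that Cre driven by the albumin promoter removes floxed Vps15 in hepatocytes, while the alleles of the animals labelled WT are not described further in the sources used here. Other liver cells keep the floxed gene unless they or their precursors have expressed albumin. Poly(A) RNA of whole tissue was sequenced, so that more cells with a transcript and more transcript per cell cannot be told apart. Libraries held between 16137093 and 18110223 reads on genes. A single read counted for 1.25 to 1.35 normalized counts in a WT library but for 0.707 to 0.810 in a Vps15LKO library. Pik3r4 itself had 508, 573 and 460 normalized counts in WT and 341, 362 and 355 in Vps15LKO livers, or −0.54 on the log2 scale (95% interval −0.78 to −0.29, adjusted p = 0.00207, limma), which was 0.19 when the libraries were scaled to the same total of reads. The paper describes deletion of 1 exon and a truncated Vps15 protein after Cre in Vps15 f/f fibroblasts. All exons of Pik3r4 were counted together here, so the deleted part is not seen apart.

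Mitosis is started by Cdk1 bound to cyclin A or cyclin B. Condensed chromosomes attach through kinetochores to the spindle, the spindle checkpoint holds back the anaphase-promoting complex (APC/C) until every chromosome is attached, and Cdc20 then activates this complex to destroy cyclin B and securin. The central spindle and a contractile ring finally divide the cell. Adult hepatocytes are largely quiescent and re-enter the cycle after loss of liver mass or injury, whereas hepatocytes of young mice still divide, and in rodents many become binucleate or polyploid through incomplete cytokinesis. Most of these genes are transcribed in G2 and M phase through promoters with a cell cycle genes homology region (CHR), which binds the DREAM and MuvB complexes, and with CCAAT boxes, which bind NF-Y. Genes of DNA replication are transcribed earlier, largely through E2F sites.

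RefSeq promoters (GRCm38.p6, from 250 bases before to 50 bases after the transcription start) were at hand for 33 of the 41 genes, with 35 promoters among them. The 5 promoters below belong to genes with both a CHR and a CCAAT box and the most normalized counts over all livers, and are shown as examples of how these elements are arranged. The 250 bases before the start are printed 5′ to 3′ on the strand of the gene, with 3 motifs in capitals wherever they occur on either strand. They are the CHR, spelled TTTGAA or as the variant TTCGAA, the CCAAT box, and an E2F core, for which GCGGGAA was searched together with its variants GCGCGAA and, with other middle bases, GCGCCAA and also GCGGCAA.
Mki67, chr7:135716380-135716629, minus strand: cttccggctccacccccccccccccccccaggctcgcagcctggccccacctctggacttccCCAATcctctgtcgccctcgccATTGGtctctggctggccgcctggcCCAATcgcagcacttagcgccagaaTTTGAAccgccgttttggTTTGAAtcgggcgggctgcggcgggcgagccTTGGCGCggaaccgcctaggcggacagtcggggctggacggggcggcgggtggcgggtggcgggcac
Top2a, chr11:99024190-99024439, minus strand: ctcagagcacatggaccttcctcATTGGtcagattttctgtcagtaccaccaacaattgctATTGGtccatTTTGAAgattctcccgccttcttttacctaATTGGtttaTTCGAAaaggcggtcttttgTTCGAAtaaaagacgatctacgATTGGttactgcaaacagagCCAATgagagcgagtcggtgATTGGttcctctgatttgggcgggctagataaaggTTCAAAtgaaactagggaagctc
Cdc20, chr4:118437344-118437593, minus strand: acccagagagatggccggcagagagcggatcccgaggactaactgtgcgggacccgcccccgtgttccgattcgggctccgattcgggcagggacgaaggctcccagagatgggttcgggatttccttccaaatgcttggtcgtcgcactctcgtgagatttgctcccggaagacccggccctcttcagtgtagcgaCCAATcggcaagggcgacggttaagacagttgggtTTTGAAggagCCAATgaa
Prc1, chr7:80294226-80294475, plus strand: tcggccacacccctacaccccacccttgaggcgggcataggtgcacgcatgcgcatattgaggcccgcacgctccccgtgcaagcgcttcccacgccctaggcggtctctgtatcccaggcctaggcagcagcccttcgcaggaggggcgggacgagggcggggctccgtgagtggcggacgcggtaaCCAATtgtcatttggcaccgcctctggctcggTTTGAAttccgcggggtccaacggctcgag
Ube2c, chr2:164769679-164769928, plus strand: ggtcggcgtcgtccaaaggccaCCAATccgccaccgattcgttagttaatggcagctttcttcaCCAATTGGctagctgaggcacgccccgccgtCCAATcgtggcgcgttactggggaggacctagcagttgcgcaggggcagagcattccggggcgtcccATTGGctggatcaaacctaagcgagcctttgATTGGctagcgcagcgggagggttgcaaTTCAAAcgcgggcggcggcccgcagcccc

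Of the 35 promoters of mitosis and cytokinesis genes, 29 (82.9%) held a CHR, against 19.2% of all 32851 promoters of the same length and 17.6% of those of protein-coding genes. A CCAAT box was present in 77.1%, against 37.4% of all promoters, and both elements in 71.4%, against 7.52%. An E2F core was present in 7 of the 35, against 9.57% of all promoters. The promoters of 31 genes of DNA replication showed the other order, with a CHR in 18.4%, a CCAAT box in 57.9% and an E2F core in 63.2%. For 64 other mitosis genes, the shares were 58.3%, 65.3% and 29.2%. These shares are descriptions of letters in a window. TTCGAA is its own reverse complement and was counted once, and GCGCCAA overlaps a CCAAT box when T follows.

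The CHR lay near the start in most of these genes. Its first base lay at a median of −10 from the start (from −234 to 41), and 27 of 40 matches, in 24 genes, began within 40 bases before to 50 bases after it. CCAAT boxes lay further upstream, at a median of −67.5. In Mki67 both CHR lie further upstream, at −116 and −98. In Cdc20 the CHR printed above stands between 2 CCAAT boxes close to the start, in Ube2c it follows 6 CCAAT boxes, 2 of which overlap as CCAATTGG, and in Top2a there are 4 CHR and 6 CCAAT boxes. Because many CHR lay after the start, the window of 250 bases before it alone held a CHR in 14 of the 35 promoters of mitosis and cytokinesis genes and in 17.1% of all promoters. The 6 genes with a promoter but no CHR in the longer window were Birc5, Ccnb1, Cenpe, Mad2l1, Nuf2 and Nusap1, and their log2 fold changes, from 2.20 to 5.24 with a median of 3.48, lay among those of the 27 genes with one, from 1.24 to 5.66 with a median over promoters of 3.79.

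**Figure D1:**
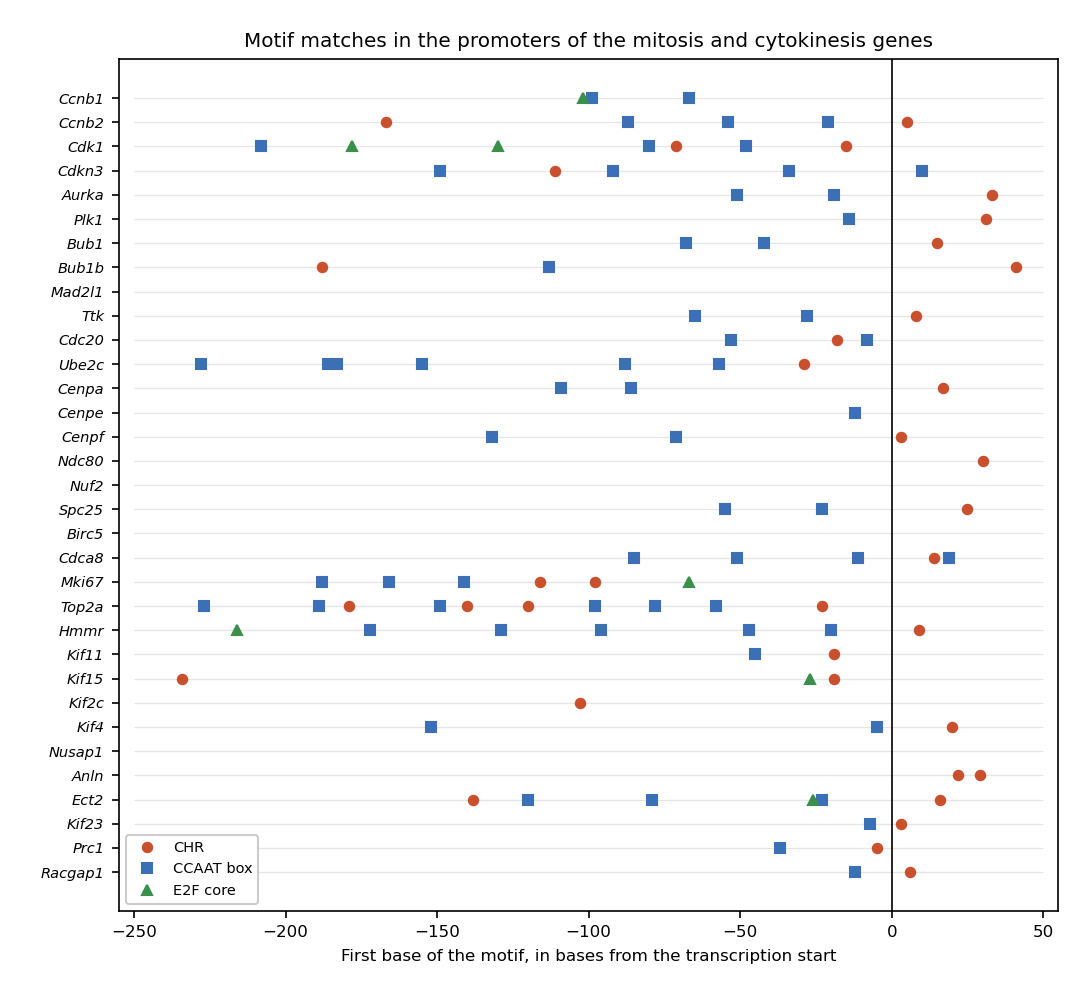
Position of each motif match in the promoters of the 33 genes with a RefSeq promoter, in bases from the transcription start (x axis), with 1 row per gene and the first promoter of Ect2 and Prc1. Over the promoters drawn, the 37 CHR matches (circles) have a median of −5 and the 62 CCAAT boxes (squares) a median of −69.5.

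All 41 genes passed the filter on low values, which asked for 20 or more normalized counts in 3 or more livers. With thresholds of 0.05 on the adjusted p and 1.2 on the fold (limma, Benjamini-Hochberg adjustment over 15430 genes), 40 were higher in Vps15LKO liver and 0 were lower (also 0 lower at an unadjusted p under 0.05 and by edgeR, DESeq2 and limma voom on the recovered reads), where 33.5% of all genes tested were higher and 33.0% lower (66.5% in either direction). For the same 40 genes every Vps15LKO liver lay above every WT liver, as was the case for 36.4% of all genes tested, with 36.8% separated the other way. The median log2 fold change of the 41 genes was 3.50 (from −0.35 to 5.66), beside −0.02 for all genes tested, and with a pseudocount of 10 in place of 1 it was 2.70. Adjusted p-values of the 40 genes, from limma, ranged from 4.76e-06 for Kif23 to 0.00334 for Spc25. No WT liver reached 20 normalized counts for 9 of the genes, which therefore passed the filter only through the Vps15LKO livers and had to differ (Cdc25c, Cdkn3, Aurkb, Bub1, Ttk, Ndc80, Nuf2, Kif15 and Kif23). For the 11 genes with 20 or more in all 3 WT livers the median was 2.20.

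Summed over the 41 genes, the normalized counts came to 1019.7, 875.6 and 1903.4 for WT and to 9114.9, 9740.3 and 10099.9 for Vps15LKO, a ratio of the mean sums of 7.62. With the libraries scaled to the same total of reads, which moved the median log2 fold change of all genes to 0.70 and their calls to 10299 higher and 1712 lower, that of the 41 genes was 4.19 and the count remained 40 higher. Quantile normalization gave a median of 2.87 beside −0.10 for all genes, again with 40 higher. WT replicate 3 held the largest sum of the WT livers, and without it the median log2 fold change was 4.34 with 40 genes higher.

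**Figure D2:**
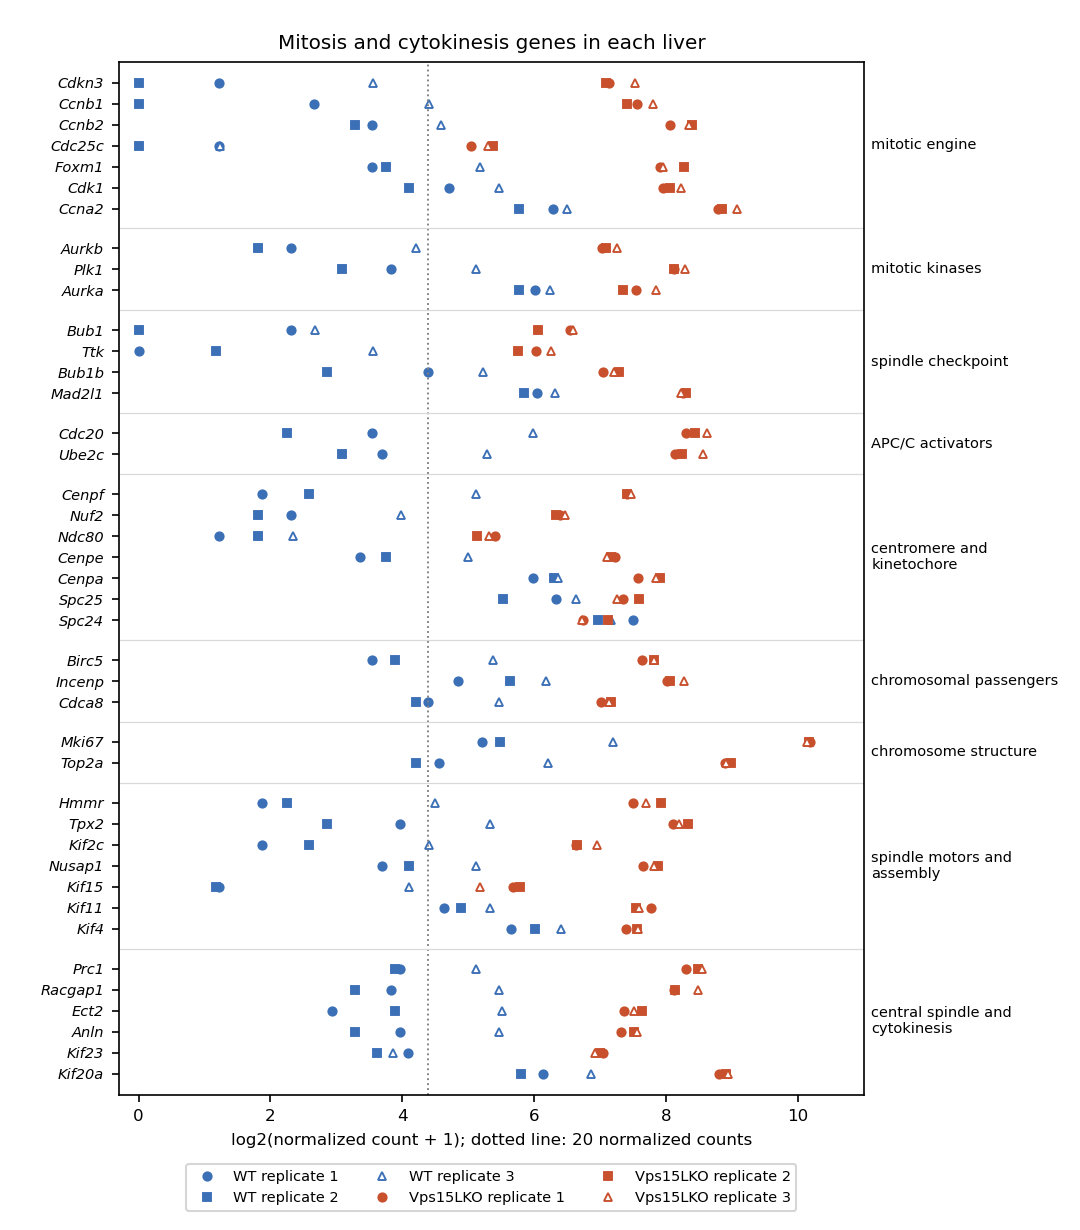
Level of each of the 41 genes in each liver as log2(normalized count + 1) (x axis), with 1 row per gene and genes ordered by role and by fold change. Blue symbols are the 3 WT and red symbols the 3 Vps15LKO livers, and the dotted line marks 20 normalized counts. The groups overlap for Spc24 alone of the 41 genes, and WT replicate 3 (open blue triangles) is the highest WT liver for 39 of them.

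The engine of mitosis rose as a group, with 7 of 7 genes higher and a median log2 fold change of 4.42. Cdk1, the kinase that drives entry into mitosis, had 25.2, 16.2 and 43.1 normalized counts in WT and 246, 266 and 298 in Vps15LKO livers. Ccna2, cyclin A2, which partners Cdk1 and Cdk2 from S phase onward, had the most normalized counts of the group, with 76.9, 53.7 and 89.0 in WT and 438, 460 and 536 in Vps15LKO livers. Its log2 fold change of 2.72 (95% interval 2.28 to 3.15) was the smallest of the 7. On the log2(normalized count + 1) scale, the largest difference of all 41 genes was that of Cdkn3, a phosphatase that removes the activating phosphate from cyclin-dependent kinases, with 1.33, 0 and 10.8 in WT and 140, 135 and 184 in Vps15LKO livers. Its log2 fold change was 5.66 (95% interval 3.91 to 7.40), while by DESeq2 Cdc25c stood higher (5.40, against 5.26 for Cdkn3).

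The B-type cyclins, which Cdk1 needs for entry into mitosis, were low in WT livers. Ccnb1 had 5.30, 0 and 20.2 normalized counts in WT and 188, 169 and 223 in Vps15LKO livers, and Ccnb2 had 10.6, 8.74 and 22.9 in WT and 265, 334 and 325 in Vps15LKO livers. The Vps15LKO livers thus lay far above all WT livers for both. Per kilobase of annotated exon, Ccnb2 had 201 normalized counts in Vps15LKO liver (173 to 218 over the 3 livers) and was the most abundant of the 41 genes on this scale, while Ccnb1 had 45.8 (39.97 to 52.8). Cdc25c, the phosphatase that activates Cdk1, was read 2 times in all WT livers together and 146 times in all Vps15LKO livers together, a ratio after normalization of 42.4 with a 95% exact counting interval of 11.5 to 353, which covers counting error only. Foxm1, a transcription factor that acts on many G2 and M phase promoters, had 10.6, 12.5 and 35.1 in WT and 238, 307 and 245 in Vps15LKO livers, a log2 fold change of 3.88 (standard error 0.39). The size of the 2 largest differences rested on WT replicates 2 and 3. Leaving out WT replicate 3 gave 6.26 for Ccnb1 and 6.64 for Cdkn3, and leaving out WT replicate 2, where neither was read, gave 4.06 and 4.86.

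Among the mitotic kinases, Plk1, which acts at centrosomes, kinetochores and the midzone, had 13.3, 7.50 and 33.7 normalized counts in WT and 276, 278 and 312 in Vps15LKO livers. Aurkb, the kinase of the chromosomal passenger complex, had 3.98, 2.50 and 17.5 in WT and 129, 135 and 152 in Vps15LKO livers. Aurka, the kinase of centrosome maturation and spindle assembly, had 63.7, 53.7 and 74.1 in WT and 185, 162 and 230 in Vps15LKO livers. For all 3 kinases the groups were separate, and the log2 fold changes were 4.16 for Plk1 (95% interval 3.17 to 5.16), 4.34 for Aurkb (3.10 to 5.59) and 1.57 for Aurka (1.15 to 1.99). With WT replicate 3 left out, Aurkb stood at 5.06.

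All 4 genes of the spindle checkpoint were higher, with a median log2 fold change of 3.73. Bub1, a kinase that brings the other checkpoint proteins to the kinetochore, had 3.98, 0 and 5.39 normalized counts in WT and 92.4, 65.6 and 94.8 in Vps15LKO livers. Mad2l1, which encodes Mad2, the protein that holds Cdc20 inactive, had 65.0, 56.2 and 78.2 in WT and 305, 316 and 297 in Vps15LKO livers. Bub1 was thus near the limit of detection in WT, whereas Mad2l1 was readily detected there, and their log2 fold changes were 4.73 (standard error 0.65) and 2.20 (standard error 0.15). Ttk, the Mps1 kinase, rose by 4.43 on the log2 scale and Bub1b, which encodes BubR1, by 3.02. Single WT livers moved 3 of these values by more than 1.5-fold. Ttk was 5.42 without WT replicate 3 and 3.64 without WT replicate 1, and without WT replicate 2 Bub1 was 3.90 and Bub1b 2.38.

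Both genes that serve the APC/C in early mitosis rose. Cdc20, an activator that the checkpoint restrains, had 10.6, 3.75 and 62.0 normalized counts in WT and 313, 344 and 393 in Vps15LKO livers, a log2 fold change of 4.53 (adjusted p = 0.000847, limma, with a standard error of 0.77). Ube2c, the ubiquitin-conjugating enzyme that starts chains on APC/C substrates, had 11.9, 7.50 and 37.7 in WT and 279, 300 and 378 in Vps15LKO livers, a log2 fold change of 4.29 (standard error 0.48). WT replicate 3 stood well above the other WT livers for both genes but below every Vps15LKO liver. In its absence the values were 5.56 for Cdc20 and 4.92 for Ube2c, and Cdc20 was 3.69 without WT replicate 2. The median log2 fold change of the 16 core subunits and constant partners of the APC/C, among them the activator Fzr1 (0.35) and the conjugating enzyme Ube2s (0.50), was 0.29, with 9 higher and 2 lower, where 33.5% and 33.0% of all genes were. Single livers changed the count of higher genes, which was 4 without Vps15LKO replicate 1 or WT replicate 2 and 5 without Vps15LKO replicate 3. Of all genes tested in these fits, 3632 of 14351, 4866 of 15175 and 3728 of 14357 were higher, in the same order. Equal total reads gave 14 higher and 0 lower (limma), where 10299 of all genes were higher and 1712 lower.

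**Figure D3:**
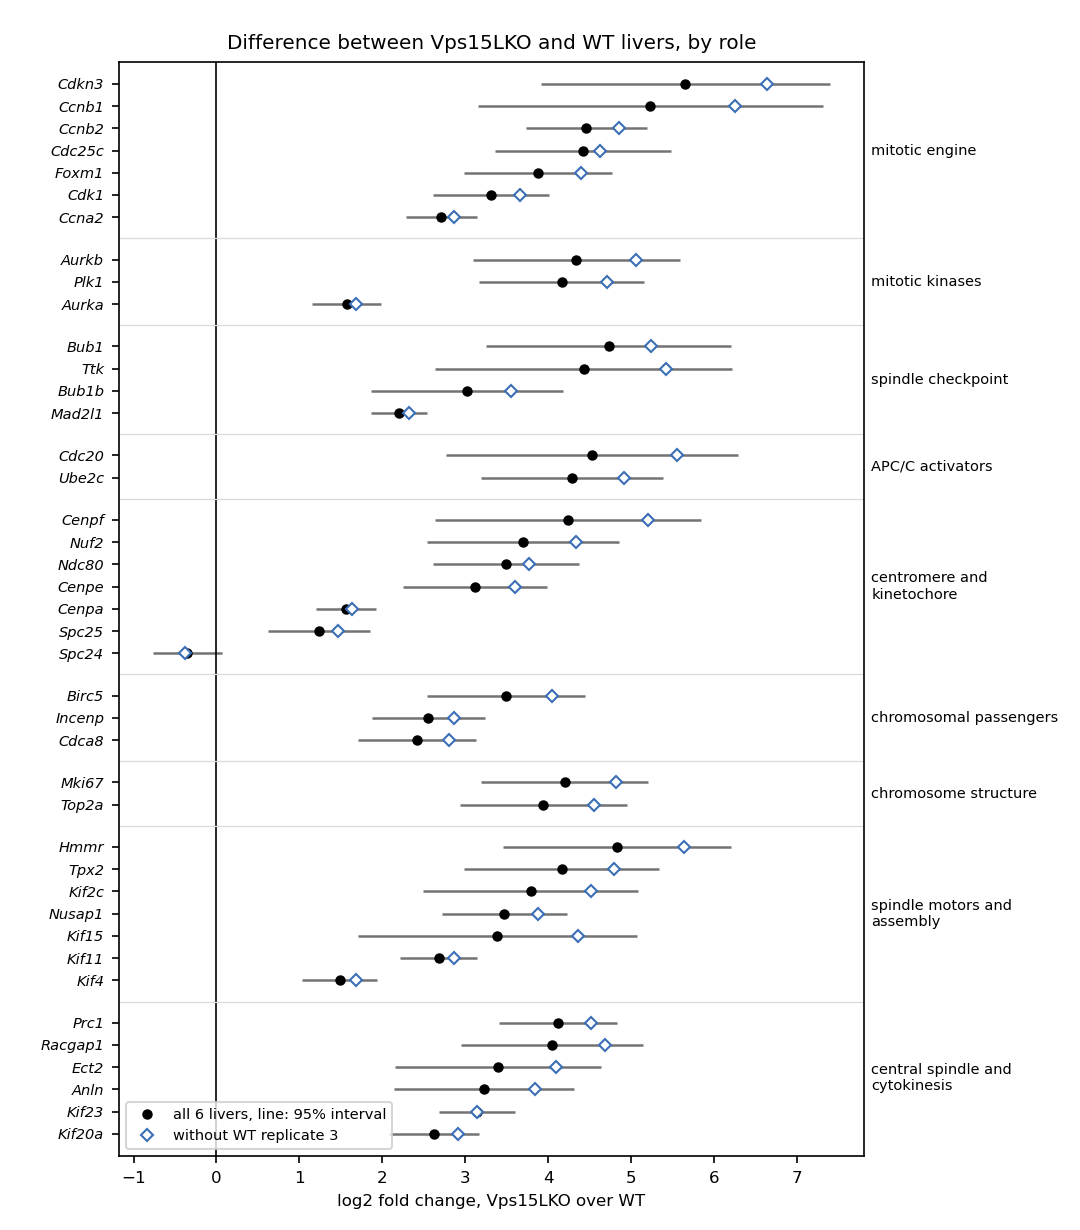
Log2 fold change of Vps15LKO over WT livers (x axis) for each of the 41 genes, ordered by role. Filled circles are values from all 6 livers with 95% intervals from limma, and open diamonds are values without WT replicate 3. The interval of Spc24 includes 0, those of the other 40 genes lie above it, and most diamonds lie to the right of their circle.

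At the centromere and kinetochore, 6 of 7 genes were higher, with a median log2 fold change of 3.12, and the differences were unequal within 1 complex. Ndc80 and Nuf2 form the microtubule-binding end of the Ndc80 complex, and Spc24 with Spc25 the end that is anchored at the kinetochore. Ndc80 had 1.33, 2.50 and 4.04 normalized counts in WT and 41.2, 34.0 and 38.9 in Vps15LKO livers, a ratio of normalized reads of 14.6 (95% exact counting interval 6.56 to 40.4), and Nuf2 rose by 3.70 on the log2 scale. Spc25 had 79.6, 45.0 and 98.4 in WT and 162, 192 and 152 in Vps15LKO livers, a log2 fold change of 1.24 (95% interval 0.62 to 1.85). Spc24 had 180, 124 and 143 in WT and 105, 138 and 105 in Vps15LKO livers. Its groups overlapped and the log2 fold change of −0.35 (95% interval −0.77 to 0.06, adjusted p = 0.116, limma) missed the threshold. The sign of this value depended on scaling, with 0.37 for equal total reads and −0.73, called lower, for quantile normalization.

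The levels of the complex also differed in WT liver. Per kilobase of exon, Spc24 was the most abundant of the 41 genes in WT, at 57.9 normalized counts, and Spc25 stood at 23.3, while Nuf2 stood at 1.12 and Ndc80 at 0.404. In Vps15LKO liver the values were 45.1 for Spc24, 52.9 for Spc25, 13.2 for Nuf2 and 5.86 for Ndc80. Spc24 and Spc25 thus lay above Ndc80 and Nuf2 in both genotypes on this scale, which divides by all annotated exons of a gene and is low for genes with long minor transcripts.

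Of the other centromere genes, Cenpa, the histone H3 variant that marks the centromere, rose less than most of the 41 genes, with 62.3, 77.4 and 80.9 normalized counts in WT and 190, 239 and 229 in Vps15LKO livers. Cenpf, a large protein of the outer kinetochore, had 2.65, 4.996 and 33.7 in WT and 169, 169 and 176 in Vps15LKO livers. The WT livers differed among themselves by about an order of magnitude for Cenpf and hardly for Cenpa, and the log2 fold changes were 4.24 (standard error 0.70) and 1.57 (standard error 0.16). Cenpf was 5.20 without WT replicate 3 and 3.58 without WT replicate 1. Cenpe, the kinesin that moves chromosomes to the spindle equator, rose by 3.12 on the log2 scale. For Nuf2 the value was 4.34 without WT replicate 3.

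The other proteins of the chromosomal passenger complex rose together with Aurkb. Incenp, its scaffold, had 27.8, 48.7 and 71.4 normalized counts in WT and 257, 265 and 307 in Vps15LKO livers. Birc5, survivin, had 10.6, 13.7 and 40.4 in WT and 199, 224 and 224 in Vps15LKO livers. Cdca8, borealin, had 19.9, 17.5 and 43.1 in WT and 128, 143 and 139 in Vps15LKO livers. The 3 genes showed no overlap between groups, and the log2 fold changes were 2.56 for Incenp (standard error 0.30), 3.49 for Birc5 (0.42) and 2.42 for Cdca8 (0.31).

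Mki67 and Top2a act on the chromosomes themselves, Ki-67 as a coat that keeps mitotic chromosomes apart and topoisomerase IIα by untangling sister DNA. Mki67 had 35.8, 43.7 and 146 normalized counts in WT and 1159, 1144 and 1126 in Vps15LKO livers, and Top2a had 22.5, 17.5 and 72.8 in WT and 476, 507 and 482 in Vps15LKO livers. The Vps15LKO livers lay close together for both genes, while WT replicate 3 stood apart from the other WT livers. Log2 fold changes were 4.20 (95% interval 3.19 to 5.21) and 3.94 (2.93 to 4.95), and became 4.82 and 4.55 in the absence of WT replicate 3.

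All 7 spindle motors and assembly factors were higher, with a median log2 fold change of 3.47. The largest difference was that of Hmmr, a microtubule-binding protein of the spindle poles, with 2.65, 3.75 and 21.6 normalized counts in WT and 180, 242 and 206 in Vps15LKO livers. Tpx2, which activates Aurora A on the spindle, had the most normalized counts, with 14.6, 6.25 and 39.1 in WT and 273, 322 and 294 in Vps15LKO livers. The smallest difference was that of Kif4, a motor of chromosome arms and the midzone, with 49.1, 63.7 and 83.6 in WT and 167, 187 and 190 in Vps15LKO livers. No group overlapped for these 3 genes, and the log2 fold changes were 4.83 for Hmmr, 4.16 for Tpx2 and 1.49 for Kif4. Between these lay Kif11 (2.68), the motor that pushes spindle poles apart, Kif15 (3.39), which can stand in for it, Nusap1 (3.47), a microtubule bundler, and Kif2c (3.79), which removes faulty attachments. Without WT replicate 3, Hmmr was 5.65, Tpx2 4.80, Kif15 4.36 and Kif2c 4.52, and Tpx2 was 3.57 without WT replicate 2.

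The 6 genes of the central spindle and of cytokinesis were all higher, with a median log2 fold change of 3.31. Prc1, which cross-links the antiparallel microtubules of the midzone, had 14.6, 13.7 and 33.7 normalized counts in WT and 313, 357 and 371 in Vps15LKO livers. Kif20a, a motor that carries the passenger complex to the midzone, had 69.0, 54.96 and 115 in WT and 447, 480 and 490 in Vps15LKO livers. Prc1 had the largest difference of the 6, with a log2 fold change of 4.12 (standard error 0.31), and Kif20a the smallest, with 2.62 (standard error 0.24). Centralspindlin, the motor complex of Kif23 and Racgap1, rose in both subunits, by 3.14 and 4.05 on the log2 scale. Ect2, the exchange factor that activates RhoA at the division site, rose by 3.39, and Anln, the ring scaffold anillin, by 3.23. Kif23 had 15.9, 11.2 and 13.5 in WT, and with Spc24 it was 1 of the 2 genes that were not highest in WT replicate 3. With that liver left out, Racgap1 was 4.69, Ect2 4.09 and Anln 3.84, and Ect2 was 2.81 without WT replicate 1.

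The spread between livers differed by genotype. WT replicate 3 had the highest level of the 3 WT livers for 39 of the 41 genes (95.1%), against 32.9% of all genes tested, and its level was a median of 2.85 times the mean of the other WT livers, against 0.98 times for all genes. WT replicate 2 was the lowest for 26 genes (63.4%, against 29.7%). The median coefficient of variation of the 41 genes was 75.9% in WT and 9.66% in Vps15LKO livers, where that of all genes was 12.2% and 9.91%. The transcripts thus varied more than a typical gene between WT livers and about as much as a typical gene between Vps15LKO livers. Counting error, which is larger at the low WT levels, was not separated from this spread. Of the 41 genes, 17 had a fold change that moved by more than 1.5-fold without WT replicate 3, 6 without WT replicate 2 and 3 without WT replicate 1, and no call changed in these fits. None moved as far without a Vps15LKO replicate among the 32 genes that could then be tested. In WT replicate 3, Ccnd1 (1651, against 725 and 651) and Cdkn1a (115, against 34.5 and 39.97) were also high, while its level of hepatocyte markers was a median of 0.89 times that of the other WT livers. The same ratio was between 0.96 and 1.15 for endothelial, cholangiocyte, macrophage, stellate cell and lymphocyte markers. It was 1.18 for the 7 tested erythroid markers, of which 71.4% were highest in this liver, and 1.78 for the 3 tested granulocyte markers, of which 33.3% were and whose list had its lowest sum in this liver (10.8, against 18.6 and 13.7). The part of these genes in the result was not tested.

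**Figure D4:**
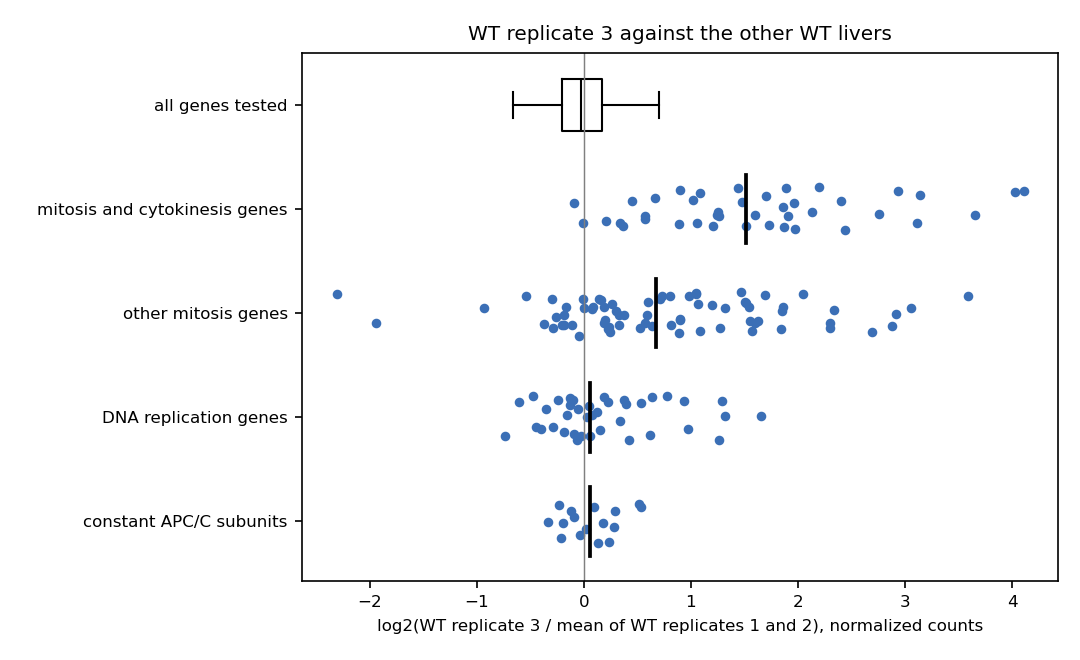
Level in WT replicate 3 over the mean of WT replicates 1 and 2, as log2 of the ratio of normalized counts (x axis), for the genes of 4 lists (points, with the list median as a bar) and for all genes tested (box of quartiles, with whiskers at the 5th and 95th percentiles). The mitosis and cytokinesis genes have a median ratio of 2.85, the other mitosis genes 1.60, and the DNA replication genes and constant APC/C subunits 1.04 each.

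A further list of 73 mitosis genes outside the 41 moved the same way in most of its members. Of 72 tested, 60 were higher and 4 lower, with a median log2 fold change of 2.52, against shares of 33.5% and 33.0% over all genes. Of the 72, 28 had no WT liver at 20 normalized counts, so that they passed the filter only through the Vps15LKO livers and had to differ. Among the 28 genes with 20 or more in every liver, 17 were higher and 4 lower, with a median of 0.94. Of all 13101 genes passing that filter, 3650 were higher and 4748 lower. Leaving out any 1 Vps15LKO liver made the filter drop genes below 20 in WT, and 32 were then higher, with a median of 1.55 to 1.78. In those fits 3632 to 3876 of all genes were higher. Iqgap3, a scaffold of the cell cortex with no WT liver at 20, had the largest difference on the log2(normalized count + 1) scale. It had 2.65, 4.996 and 18.9 normalized counts in WT and 222, 227 and 241 in Vps15LKO livers. Its log2 fold change was 4.93 (5.62 without WT replicate 3), while by DESeq2 Troap stood higher (4.92, against 4.72 for Iqgap3). Ccnf, cyclin F, a ubiquitin ligase subunit that restrains Cdc6 and E2F in G2, had the lowest log2 fold change, with 432, 292 and 413 in WT and 154, 180 and 204 in Vps15LKO livers, or −1.06 (−0.34 and not called under equal total reads). The other 3 lower genes, named after their values were seen, were Ncaph2 of condensin II (−0.93), Mis12 of the kinetochore (−0.85) and Hjurp, the Cenpa chaperone (−0.62). Under equal total reads the first 2 kept a negative sign (−0.20 and −0.12) and Hjurp did not (0.11). Not all partners of these genes were called higher. In condensin II, Ncapg2 and the shared Smc2 and Smc4 rose by 2.42, 2.002 and 1.25, while Ncapd3 stood at 0.02 and was not called. In the Mis12 complex, Dsn1 and Nsl1, the latter with no WT liver at 20 normalized counts, rose by 1.96 and 1.85 while Pmf1 stood at −0.21 and was not called. Cenpa, which Hjurp loads, rose by 1.57.

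Genes of other parts of the cycle were also measured. Of 40 DNA replication genes, 26 were higher and 3 lower, with a median log2 fold change of 0.92, where 33.5% of all genes were higher and 33.0% lower. Only 4 of them had no WT liver at 20 normalized counts. Of the 35 genes with 20 or more in every liver, 21 were higher and 3 lower, with a median of 0.85, close to the 0.94 of the other mitosis genes under the same filter. In all, 3650 of the 13101 genes under this filter were higher and 4748 lower. Uhrf1, which guides maintenance DNA methylation, had the largest difference, with 6.63, 8.74 and 24.3 normalized counts in WT and 177, 157 and 224 in Vps15LKO livers. Mcm10, a replication initiation factor, went the other way, with 1618, 1575 and 1661 in WT and 156, 167 and 113 in Vps15LKO livers, a log2 fold change of −3.49 (adjusted p = 7.03e-07, limma, with a standard error of 0.15). Tk1, an enzyme of thymidine salvage, was also lower (−0.79, and −0.07 under equal total reads). Among 16 constant APC/C subunits and partners, Cdc23 had the highest value (1.07) and Anapc13 the lowest (−0.60, and 0.12 under equal total reads). Cdc23 shares exons with Kif20a, so its reads in the shared part are uncertain.

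**Figure D5:**
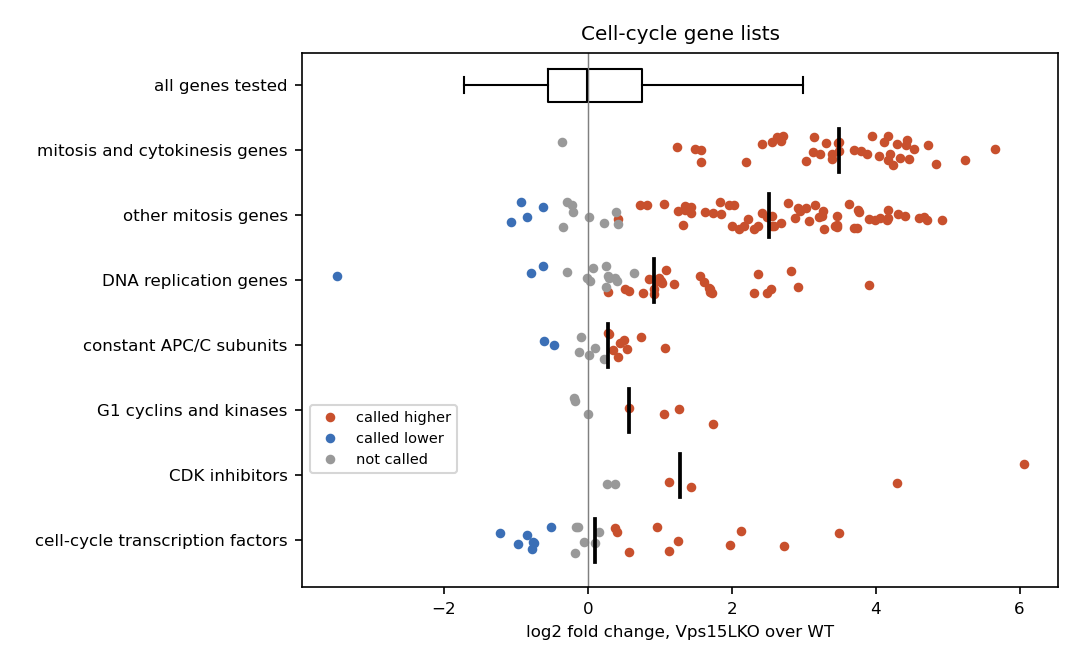
Log2 fold change of Vps15LKO over WT livers (x axis) for each tested gene of 7 cell-cycle lists, with red points called higher, blue points called lower, grey points not called and a bar at the list median. The box shows quartiles of all 15430 genes tested, with whiskers at the 5th and 95th percentiles. Medians are 3.50 for the mitosis and cytokinesis genes, 2.52 for other mitosis genes and 0.92 for DNA replication genes, and 2.20, 0.94 and 0.85 among the genes of these lists with 20 or more normalized counts in every liver.

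The G1 regulators were mixed. Of 7 genes of G1, the D-type cyclins and their kinases with Cdk2 and the phosphatase Cdc25a, 4 were higher, where 33.5% of all genes were. Cdc25a (1.06) is 1 of the 4 and is also counted among the other mitosis genes. Ccnd1, cyclin D1, had 725, 651 and 1651 normalized counts in WT and 3023, 3066 and 3117 in Vps15LKO livers (log2 fold change 1.74, standard error 0.30), whereas Ccnd3 (0.01), Cdk2 (−0.18) and Cdk4 (−0.19) were not called. Of the 6 inhibitors of cyclin-dependent kinases that were tested, 4 were higher, against the same 33.5%. Among the 5 with 20 or more normalized counts in every liver 3 were higher, where 3650 of the 13101 genes passing that filter were. Cdkn1a, which encodes p21, had 34.5, 39.97 and 115 in WT and 1037, 999 and 1231 in Vps15LKO livers, a log2 fold change of 4.30 (standard error 0.39). Cdkn2b, which encodes p15, had 2.65, 2.50 and 0 in WT and 169, 126 and 176 in Vps15LKO livers, a log2 fold change of 6.06 (standard error 0.50), and 5.45 without WT replicate 3. No WT liver reached 20 normalized counts for Cdkn2b, which passed the filter only through the Vps15LKO livers. Cdkn1b, which encodes p27, stood at 0.27 and Cdkn2d at 0.38, and neither was called.

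Of 23 transcription factors and pocket proteins of the cycle, 10 were higher and 7 lower, with a median log2 fold change of 0.10. The share of all genes tested was 33.5% higher and 33.0% lower. Mybl1, Mybl2 and E2f7 had no WT liver at 20 normalized counts and passed the filter only through the Vps15LKO livers. Among the 20 genes with 20 or more in every liver, 7 were higher and 7 lower, with a median of −0.10. Over all 13101 genes passing that filter, 3650 were higher and 4748 lower. Under equal total reads 16 were higher and 0 lower (limma), with a median of 0.81, where 10299 of all 15430 genes were higher and their median was 0.70. Mybl2, the B-Myb subunit that turns MuvB into an activator at CHR promoters, had 3.98, 9.99 and 5.39 normalized counts in WT and 38.2, 43.8 and 55.9 in Vps15LKO livers, a log2 fold change of 2.72. E2f1 rose by 1.13, from 86.2, 76.2 and 86.3 to 179, 195 and 173. E2f7 and E2f8, repressors that act late in S phase and in hepatocyte polyploidization, differed in direction. E2f7 had 0, 3.75 and 10.8 in WT and 35.1, 48.6 and 43.1 in Vps15LKO livers, a log2 fold change of 3.49 (4.30 without WT replicate 3 and 2.52 without WT replicate 1). E2f8 had 328, 192 and 577 in WT and 138, 194 and 106 in Vps15LKO livers, a log2 fold change of −1.22 (adjusted p = 0.0175, limma), with overlapping groups and no call without WT replicate 1 (−1.23) or Vps15LKO replicate 3 (−1.02). The MuvB core genes Lin9 (0.10), Lin37 (0.15) and Lin54 (−0.17), named after their values were seen, were not called, and Lin52 (−0.76) and Rbbp4 (−0.78) were lower, with −0.04 and −0.05 under equal total reads.

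Transcripts that mark other cell types of the liver also differed between genotypes, with counts to be read against the 33.5% of all genes that were higher and the 33.0% that were lower. Of 10 hepatocyte markers 9 were lower, and their summed normalized counts were 2909367 to 3322209 in WT and 814692 to 1241178 in Vps15LKO livers. Of 11 markers of Kupffer cells and macrophages 9 were higher (sums of 9552 to 11142 and 32261 to 35904), as were 9 of 9 of stellate cells and fibroblasts (6927 to 7423 and 29269 to 34405), 7 of the 7 tested of cholangiocytes (789 to 917 and 11915 to 23124) and 6 of the 7 tested of lymphocytes (122 to 166 and 396 to 492). Among 9 endothelial markers, 4 were higher and 4 lower (9892 to 10905 and 9299 to 10948). Of 10 erythroid markers 7 were tested, with 1 higher and 2 lower (7651 to 10101 and 6764 to 9442), and Gata1 and Ermap were not read in WT. All 3 tested of 6 granulocyte markers were higher (10.8 to 18.6 and 196 to 277), with Mpo and Ly6g not read in WT. These 3, 4 of the tested lymphocyte markers, 1 of the tested cholangiocyte markers and the 1 higher erythroid marker had no WT liver at 20 normalized counts, so that they passed the filter only through the Vps15LKO livers and had to differ. The part of these cell types in the levels of the mitosis and cytokinesis genes was not tested.

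Several of the 41 genes share exons with a neighbour, and the strand setting of the read counting is not given in the sources used here, so reads in the shared part are uncertain. Kif20a shares 1271 bases (29.3% of its exons) with Cdc23 on the opposite strand, and Cdc23 had 207, 189 and 286 normalized counts in WT and 441, 455 and 523 in Vps15LKO livers. Ube2c shares 22.8% of its exons with Tnnc2, which had at most 1 read in any liver, and Cdc25c 12.7% with Gm3550, which had at most 2. Kif4 shares 15.1% with Pdzd11 (290, 256 and 329 in WT, 289, 314 and 327 in Vps15LKO), Ccna2 12.5% with Exosc9 (200.2, 166 and 179, then 254, 272 and 279) and Prc1 11.1% with Rccd1 (65.0, 46.2 and 104, then 197, 212 and 272). The ratio of mean normalized counts, Vps15LKO over WT, was 1.48 for Exosc9 and 6.53 for Ccna2, 1.06 for Pdzd11 and 2.77 for Kif4, 3.17 for Rccd1 and 16.8 for Prc1, and 2.08 for Cdc23 and 5.94 for Kif20a. Smaller parts are shared by Plk1 with Gm44985 (7.09%), and by Cdca8, Nusap1, Cdc20 and Foxm1 with other genes (at most 4.48%). The pseudogene Ccnb2-ps, which can draw reads of Ccnb2, had 9.28, 13.7 and 33.7 in WT and 9.93, 8.10 and 17.7 in Vps15LKO livers.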

How the data were processed

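Poly(A) RNA of 6 livers, 3 WT and 3 Vps15LKO as labelled, was sequenced with 1 library per liver. The authors filtered the reads with SOAPnuke, aligned them to GRCm38 with HISAT2 and counted them per gene with featureCounts, and tool versions and the strand setting are not given in the sources used here. The deposited values are a signal, the reads of each gene divided by the DESeq2 size factor of its library. Every value (100% in each library, to within 0.001 of a whole number) was a whole multiple of 1 read, so reads were recovered and also compared with edgeR 4.0.16, which called 10320 of 15430 genes. Precision is set by the spread between livers, and the 2 ratios with counting intervals cover counting error only. Exact permutation of 3 against 3 livers cannot go below p = 0.1.

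Symbols, coordinates and exon lengths came from GENCODE M21 (55227 of the 56305 genes matched). After the filter on low values stated in the report, log2(normalized count + 1) was compared with limma 3.58.1 (eBayes with a trend) in R 4.3.3. This scale understates changes of genes with low counts. In counts simulated for WT against Vps15LKO, 14304 genes were tested and 50 were changed per fold. The scale recovered 100% of 4-fold and 90.0% of 2-fold rises and 86.0% of 0.5-fold falls, with 7 false calls. The simulation changed 200 genes in all, where 10262 of 15430 were called in the data. Its rates were not split by level or by spread between livers. Whether they hold for the mitosis and cytokinesis genes, with a median WT coefficient of variation of 75.9%, was not tested. Between replicates the mean chi-square per gene was 14.0 to 36.4, so none of the libraries was deposited in duplicate.

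The 41 genes, the other lists and the tests were chosen with earlier results of these data known. Within each role, livers are given for the genes with the most counts and with the largest and smallest change, and for any gene not called. From each other list they are given for the highest and lowest gene, together with Pik3r4, Mybl2, E2f1, E2f7, E2f8, Cdkn1a, Ccnd1 and neighbours that share exons. Some further members of each role, named beside them, fall outside this rule. Some genes of the lists are not reported by name here. Breeding was meant to give litters with WT and Vps15LKO animals, but no source used here ties a replicate number to a litter. The alternatives were pseudocounts of 0.1 and 10, other filters, scalings, tools and thresholds, each liver left out, replicate number as a block, and a promoter window without the bases after the start.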

Additional observations from a re-analysis of the deposited data

How the results depend on the processing

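Of the values for the 41 genes under the alternatives, 842 kept direction and side of the threshold. The exceptions were those of Spc24, 0.37 under equal total reads and a call as the 1 lower gene under quantile normalization. With at least 20 normalized counts required in every liver, 11 of the 41 genes were tested and 10 were higher, and 17 of the other mitosis genes. Of all 13101 genes tested under that filter, 3650 were higher and 4748 lower. Leaving out livers gave 31 to 40 of the 41 genes, 32 to 61 other mitosis genes and 4 to 8 constant APC/C subunits higher. The low values of the first 2 ranges came from leaving out a Vps15LKO liver, where genes below 20 in WT no longer pass the filter. Of all genes, 3632 to 3876 were higher without a Vps15LKO liver and 4866 to 5156 without a WT liver.

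A fold of at least 2 left 3228 genes higher and 1957 lower in all, 1 other mitosis gene lower, 1 constant APC/C subunit higher and 0 lower, 17 replication genes higher and 1 lower, and 6 transcription factors higher and 1 lower, and Pik3r4 (−0.54) was not called. An adjusted p under 0.01 left 4 constant APC/C subunits higher, where 4331 of all 15430 genes were higher and 4047 lower. Equal total reads gave 10299 genes higher and 1712 lower in all, 0 other mitosis genes lower, 14 constant APC/C subunits higher and 0 lower, 1 replication gene lower, 7 G1 genes higher, and 16 transcription factors higher and 0 lower. The split of higher against lower calls among all genes thus depends on the scaling. Equal total reads also turned Pik3r4 (0.19), Anapc13 (0.12), Cdk4 (0.54) and Cdk2 (0.54). Quantile normalization turned Cdk4 (0.37) and Cdkn2d (−0.24) and called 1 G1 gene lower, where 4692 of all genes were higher and 5801 lower. Upper-quartile scaling turned Ccnd3 (−0.089) and called 7 other mitosis genes lower, 4 constant APC/C subunits higher and 1 G1 gene lower. Under that scaling 4692 of all genes were higher and 5835 lower. Ccnd3 ranged from −0.043 to 0.095 with single livers left out. With the promoter window cut at the start, 40% of the promoters held a CHR and 34.3% a CHR with a CCAAT box. Beyond the changes of filter and window, which act by construction, the cause was not tested.

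Livers with the same replicate number did not deviate together (correlations of −0.01, −0.01 and 0.05 over 15430 genes). A fit with the replicate block called 5065 genes higher and 4983 lower, with 40 of the 41 genes higher and 0 lower, and 6 constant APC/C subunits higher. Whether the number pairs livers cannot be told from these values, since a pairing with a small effect could go unseen. WT replicate 2 correlated better with Vps15LKO replicate 1 (0.09) than with its own number.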
